A study of Rattus norvegicus with 6 samples.

Results

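Axon guidance ligands and receptors are the secreted and membrane proteins that steer growing axons and keep mature connections in place. They were taken here as the rows of the deposited gene table whose symbol begins with the name of a semaphorin, plexin, neuropilin, Eph receptor, ephrin, Slit, Robo, netrin, netrin receptor (Dcc and the Unc5 genes) or with Rtn4, the gene of Nogo-A. The rule found 77 genes among 19382 in the table. It also takes in Rtn4ip1, a mitochondrial protein that binds Nogo, and Unc5cl, which only resembles the Unc5 receptors. Of the 77 genes 74 had enough reads to be tested. Robo4, Ntn5 and Unc5cl did not, with at most 12, 5 and 4 reads in a library.

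Semaphorins signal through plexins, and the secreted class 3 semaphorins mostly need neuropilins as co-receptors. Ephrins are bound to the membrane and signal through Eph receptor kinases on the neighbouring cell, Slits repel axons through Robo receptors, and netrins attract through Dcc and repel through Unc5. Nogo-A is best known as an inhibitor of axon regrowth in the injured brain and spinal cord, where it acts in part through the receptor encoded by Rtn4r.

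The measurements are RNA-seq read counts of rat brain tissue from 3 control libraries and 3 libraries of a hypoxia-ischemia (HI) group. The HI animals were Sprague-Dawley (SD) rats exposed at 7 days of age for 2.5 h, which models brain injury of the newborn. Controls carry only the label of a control treatment, and the series' text calls them normal rats. No sham operation, brain region, sampling time after the injury or pooling of animals is given for either group. Whether each library is a different animal is not stated, so the p-values reflect the spread among these samples alone, and some of it may be technical.

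The libraries held 13922663 to 14927469 estimated reads, of which the 77 genes took 0.803%, 0.773% and 0.715% in controls 1, 2 and 3 and 0.678%, 0.615% and 0.531% in HI 1, 2 and 3. Levels are in CPM, the reads of a gene scaled to library size and a normalization factor. A count of 0 would allow up to 3 reads, or 0.182 to 0.227 CPM. They cannot be compared between genes, since they are not corrected for transcript length. Marker genes of brain cells were present in each library, with 295 to 866 CPM of Aqp4 (astrocytes) and 113 to 365 CPM of Gad1 (inhibitory neurons). Region markers were uneven. The summed level of 10 dorsal cortex genes, among them Emx1, was 2357 and 2808 CPM in controls 1 and 2 but 669 CPM in control 3, and 304 to 365 CPM in HI. Control 3 had 1303 CPM of 8 striatal genes, against 144 to 315 CPM elsewhere. Control 1 had 428 CPM of the 8 thalamus, midbrain and hindbrain genes with a row, against 45.2 to 106 CPM elsewhere. Choroid plexus genes stood at 2192 CPM in control 2 and at 8222 and 15393 CPM in HI 2 and HI 3, against 14.6 to 188 CPM in the other libraries. In bulk tissue fewer cells of a type and less RNA per cell cannot be told apart.

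**Figure D1:**
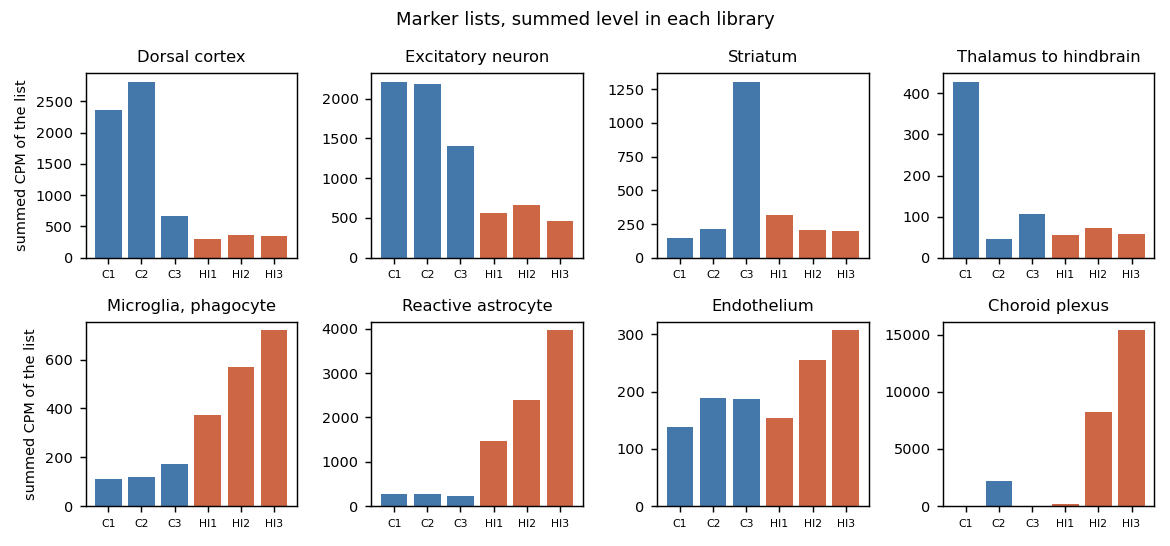
Summed CPM (vertical axes, linear, from 0) of 8 marker lists in the 3 control (C1 to C3, blue) and 3 HI libraries (HI1 to HI3, red), 1 bar per library. Dorsal cortex genes fall from 2357 and 2808 CPM in C1 and C2 to 669 CPM in C3, while striatal genes are highest in C3 at 1303 CPM.

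More guidance genes were lower than higher in HI. Of 74 tested members 16 passed the test, 13 lower and 3 higher in HI, at an edgeR p below 0.05 after adjustment over all genes by Benjamini and Hochberg. Those that fell were Sema7a, Epha4, Ephb6, Robo2, Rtn4rl2, Epha3, Rtn4rl1, Sema3e, Plxna2, Sema6c, Plxna4, Efna3 and Rtn4, and those that rose were Unc5b, Plxnb2 and Sema3g. The median log2 fold change of the 74 genes was -0.34, with 53 below 0 and 21 above, beside a median of 0.04 over all tested genes.

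Across all 14959 genes tested 13.9% passed, 7.04% lower and 6.83% higher. Among the members the shares were 17.6% lower and 4.05% higher. All 3 HI libraries lay below all 3 controls in 25 members (33.8%, against 20.8% of all genes) and above them in 9 (12.2%, against 21.5%). At an unadjusted p below 0.05 by edgeR there were 39 members (52.7%, against 36.5%). The edgeR adjusted p of the 16 genes lay between 0.0196 and 0.0436. The smallest over all tested genes was also 0.0196, so nearness to the threshold was shared by every gene that passed. DESeq2 passed 26 members as lower and 7 as higher, where it passed 28.1% of all genes, 14.2% lower and 13.9% higher. limma-voom passed 10 and 2, beside 5.47% and 3.69% of all genes. It passed 11 of the 16 and also Epha8, and the other 5 (Plxna4, Sema6c, Unc5b, Rtn4rl2 and Ephb6) had limma-voom adjusted p between 0.0502 and 0.0745. The split moved with scaling. Upper-quartile factors gave 12 lower and 5 higher, beside 5.37% and 9.67% of all genes, whose median was then 0.14. Scaling by total counts gave 12 and 6, beside 4.88% and 14.4%, at a median of 0.23. Leaving out single libraries changed the count over the whole table as well as over the members. Without control 1, control 2 or HI 2 the number of members passed by edgeR was 0. Over all genes 0%, 0.00653% (1 gene) and 0% passed in these fits. Without HI 3 there were 8 members lower and 0 higher, beside 2.65% and 1.62% of all genes. Without control 3 there were 14 and 1, beside 7.08% and 3.96%, and without HI 1 there were 24 and 6, beside 10.4% and 13.7%. Each of the 16 genes kept its sign in all 16 alternative fits, which is largely fixed by their having been chosen on these libraries.

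**Figure D2:**
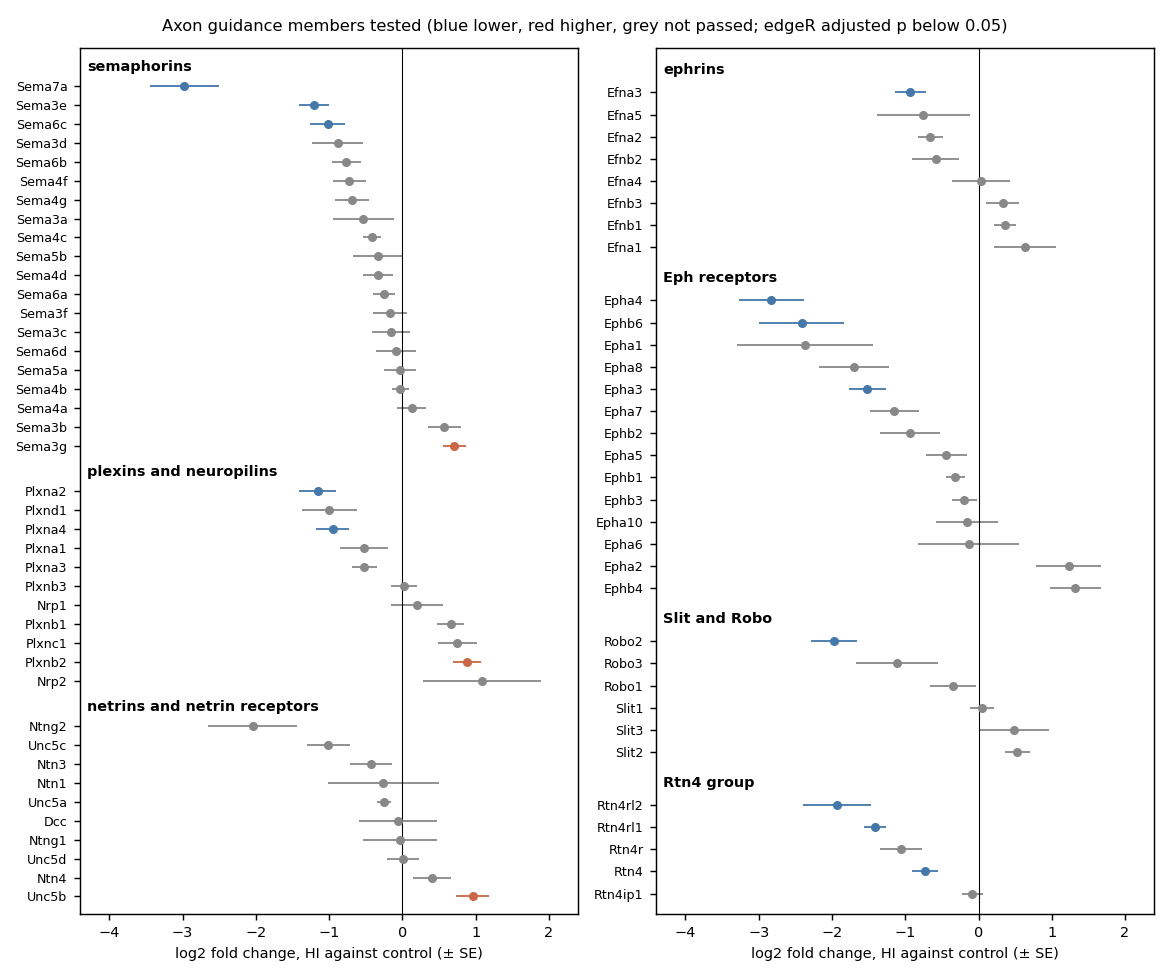
Log2 fold change of HI against control (horizontal axis) with its SE from the edgeR fit for the 74 tested members, grouped by family. Blue points passed as lower (13), red as higher (3), and grey did not pass. The longest shifts to the left are Sema7a at -2.98 and Epha4 at -2.83.

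The DNA just before the start of 4 of these genes is shown because Sema7a and Ephb6 had among the deepest falls and Unc5b and Sema3g rose, and in each the listed start is the 5′ end of the gene in RefSeq. Sequences are the 250 bases upstream of the start, 5′ to 3′ along the gene, from RefSeq on assembly GRCr8, and capitals mark GGGCGG or its complement CCGCCC, the core letters of Sp and Klf binding elements. Sema7a is on the plus strand at chr8:67244068-67244317, Ephb6 on the plus strand at chr4:71458382-71458631, Unc5b on the minus strand at chr20:29307271-29307520 and Sema3g on the plus strand at chr16:6419775-6420024.
Sema7a: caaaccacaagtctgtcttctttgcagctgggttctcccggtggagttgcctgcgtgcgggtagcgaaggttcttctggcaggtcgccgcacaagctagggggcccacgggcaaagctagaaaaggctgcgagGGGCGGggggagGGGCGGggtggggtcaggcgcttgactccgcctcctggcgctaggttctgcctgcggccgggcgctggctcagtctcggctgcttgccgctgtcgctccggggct
Ephb6: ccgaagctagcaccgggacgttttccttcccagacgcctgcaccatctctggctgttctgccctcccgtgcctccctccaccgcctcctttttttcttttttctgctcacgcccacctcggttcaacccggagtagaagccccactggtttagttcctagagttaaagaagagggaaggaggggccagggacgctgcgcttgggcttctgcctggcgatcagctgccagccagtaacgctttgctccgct
Unc5b: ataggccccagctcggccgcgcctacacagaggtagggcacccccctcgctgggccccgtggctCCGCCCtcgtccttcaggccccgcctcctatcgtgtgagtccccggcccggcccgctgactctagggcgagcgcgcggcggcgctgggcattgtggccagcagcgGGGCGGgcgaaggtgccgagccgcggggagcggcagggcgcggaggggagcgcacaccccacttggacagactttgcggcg
Sema3g: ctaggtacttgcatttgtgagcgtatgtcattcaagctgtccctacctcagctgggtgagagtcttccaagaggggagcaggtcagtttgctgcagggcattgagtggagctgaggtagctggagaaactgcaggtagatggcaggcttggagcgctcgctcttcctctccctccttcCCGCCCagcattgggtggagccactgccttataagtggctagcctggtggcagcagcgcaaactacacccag

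In these windows Sema7a held 2 matches, Unc5b 2, Sema3g 1 and Ephb6 0. RefSeq promoter windows of 300 bases (250 before and 50 after the start) were matched to 59 of the 77 members by gene number. On either strand GGGCGG was found in 33 of the 59 (55.9%) and in 34.9% of 27457 genes with such a window. Among members it was in 3 of 3 that rose, in 6 of 9 that fell and in 22 of 45 that did not pass. The AP-1 letters TGACTCA or TGAGTCA were in 0 of 12 members that passed and in 4.53% of all windows, and the E-box CACGTG in 1 of 12 and in 6.65%. A match is a run of letters and no evidence of binding.

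Of 20 tested semaphorins 3 fell and 1 rose, and 17 had a log2 fold change below 0. Sema7a, a membrane-anchored semaphorin that promotes axon growth through integrins and also binds plexin C1, had 416, 384 and 121 CPM in controls 1, 2 and 3 and 36.5, 46.7 and 33.6 CPM in HI 1, 2 and 3. Every HI library was below every control, and control 3 lay closer to HI than to the other controls. The gene fell to 0.127 of the control level, a log2 fold change of -2.98 ± 0.47 (SE, n = 3 per group, edgeR adjusted p = 0.0231). Without control 3 the value was -3.40.

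Sema3e, a secreted semaphorin that binds plexin D1 directly, had 21.2, 33.4 and 29.1 CPM in the controls and 12.8, 13.0 and 10.4 CPM in HI. The HI libraries were tightly grouped under the controls, with control 3 in the middle of its group, and the fall was to 0.433 of the control level (log2 fold change -1.21 ± 0.21 SE, edgeR adjusted p = 0.0244). Sema6c, a transmembrane semaphorin, went from 131, 143 and 86.7 CPM to 72.3, 59.6 and 45.8 CPM, a fall to 0.492 (adjusted p = 0.0405 by edgeR and 0.0506 by limma-voom), again with control 3 lowest among the controls. Sema3g was the semaphorin that rose. It is expressed mainly in blood vessels and acts through neuropilin 2. Its levels were 12.1, 9.50 and 10.4 CPM in the controls and 16.3, 18.3 and 17.6 CPM in HI, a 1.63-fold rise (edgeR adjusted p = 0.0367).

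Of the semaphorins that did not pass, Sema6b had 183, 178 and 169 CPM in controls and 125, 113 and 72.8 CPM in HI, separate groups with an edgeR adjusted p of 0.0513. Sema3d had 11.6, 18.5 and 8.31 CPM against 5.08, 6.94 and 8.72 CPM, and HI 3 overlapped control 3. The other 14 semaphorins, from Sema3a to Sema6d, had log2 fold changes between -0.72 and 0.57 and edgeR adjusted p of at least 0.0659. In the membrane classes 4 to 7 as a whole 12 of 13 tested genes had a log2 fold change below 0 (92.3%, against 46.7% of all genes). All HI libraries lay below all controls in 6 (46.15%, against 20.8%).

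Among the plexins Plxna2 and Plxna4 fell and Plxnb2 rose. A plexins serve as signalling receptors for the semaphorins of classes 3 and 6, and B plexins for class 4. Plxna2 had 261, 290.3 and 331 CPM in controls and 160.1, 149 and 85.4 CPM in HI, and Plxna4 had 262, 221 and 217 CPM against 149, 130.5 and 81.7 CPM. Both had well separated groups, with HI 3 lowest. Plxna2 fell to 0.448 and Plxna4 to 0.517 of the control level (edgeR adjusted p = 0.0341 and 0.0424). By limma-voom Plxna4 had an adjusted p of 0.0502. Plxna3, named after its value was seen, also had separate groups but missed the threshold at -0.52 ± 0.17 (log2, edgeR adjusted p = 0.0831).

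Plxnb2, a receptor for semaphorins 4C and 4D found in glia, progenitors and macrophages, rose. Its levels were 182, 199.6 and 181 CPM in the controls and 258, 346 and 430.3 CPM in HI 1, 2 and 3, a 1.84-fold rise (log2 fold change 0.88 ± 0.19 SE, edgeR adjusted p = 0.0352). The controls differed little among themselves and the HI libraries spread upward from them. In HI the summed level of 10 microglia and phagocyte markers followed the same order of libraries, 372, 570 and 720 CPM, against 111 to 171 CPM in controls, with 7 of the 10 higher by the same test. Its first 2 genes, Aif1 and Csf1r, were at 15.2 to 29.6 and 90.8 to 150.5 CPM in HI. Reactive astrocyte genes also had that order, with 1459, 2396 and 3964 CPM in HI against 238 to 275 CPM in controls and 8 of 9 tested genes higher, and so did the mural and endothelial lists given beside Unc5b. The part of these cells in the rise was not tested. Choroid plexus genes rank the HI libraries in the same order, with 188, 8222 and 15393 CPM, and with their level as a further term in the fit the log2 fold change of Plxnb2 was 0.55 (edgeR adjusted p = 0.174).

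Plxnb1 and Plxnc1, named after their values were seen, had HI above control in every library without passing, with log2 fold changes of 0.66 ± 0.19 and 0.75 ± 0.27 (edgeR adjusted p = 0.0605 and 0.0998). The estimated count of Plxnb1 was not whole in HI 3, so some reads may have been divided with another gene, and its value is uncertain to that extent. Plxnc1, the plexin that binds Sema7a, thus had a positive log2 fold change where its ligand fell. Plxnd1, the receptor of Sema3e, had 118, 166 and 258 CPM in controls and 51.9, 111 and 108 CPM in HI, a difference of -1.0 ± 0.38 (log2) short of the threshold (edgeR adjusted p = 0.113). Nrp2, co-receptor for Sema3f and Sema3g, had 85.3, 11.9 and 160.2 CPM against 266, 164 and 115 CPM. Control 2 lay far under all other libraries and the groups overlapped, and the log2 fold change of 1.08 ± 0.81 did not pass (edgeR adjusted p = 0.368). The remaining Nrp1, Plxna1 and Plxnb3 ran from -0.53 to 0.20.

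**Figure D3:**
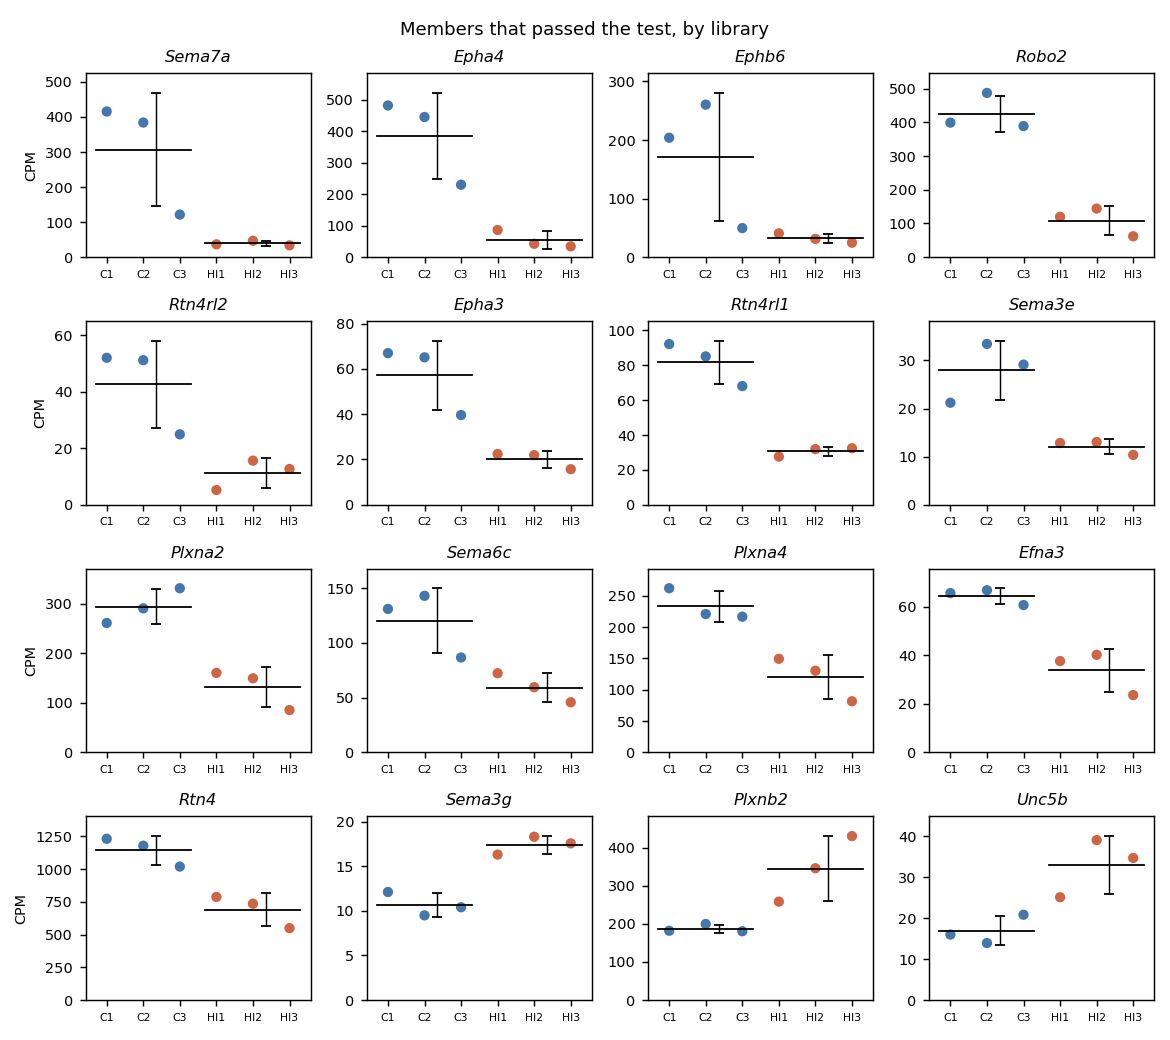
CPM (vertical axes, linear) of the 16 members that passed the test in controls 1 to 3 (C1 to C3, blue) and HI 1 to 3 (red). Horizontal lines are group means and bars 1 SD over 3 libraries. In Sema7a, Epha4, Ephb6, Rtn4rl2, Epha3 and Sema6c the third control stands at least 1.5-fold below the mean of C1 and C2. Among the members that fell it is also the lowest control, by less, in Rtn4rl1, Robo2, Plxna4, Efna3 and Rtn4, and the highest in Plxna2.

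Among 14 tested Eph receptors 3 fell (21.4%, against 7.04% of all genes) and 0 rose (against 6.83%) by edgeR. A log2 fold change below 0 was found in 12 (85.7%, against 46.7%). By edgeR 9 had an unadjusted p below 0.05 (64.3%, against 36.5%), while DESeq2 passed 7, beside 28.1% of all genes. Epha4, a receptor of projection neurons and astrocytes that binds ephrins of both classes, had 482, 446 and 230.3 CPM in controls and 86.3, 42.3 and 34.2 CPM in HI. All controls stood well above all HI libraries although control 3 was the lowest control. The fall was to 0.141 of the control level (log2 fold change -2.83 ± 0.44 SE, edgeR adjusted p = 0.0231). Epha3, a receptor for A-type ephrins, had 66.9, 65.1 and 39.6 CPM against 22.4, 21.9 and 15.7 CPM and fell to 0.350 of the control level (edgeR adjusted p = 0.0235).

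Ephb6 is a member without kinase activity. It had 204, 260.4 and 49.6 CPM in controls 1 to 3 and 40.7, 31.0 and 24.7 CPM in HI, so control 3 was barely above HI 1 and the spread of the controls was 109 CPM (SD) around a mean of 171. The log2 fold change of -2.42 ± 0.58 passed by edgeR (adjusted p = 0.0428) and not by limma-voom (adjusted p = 0.0745). Epha8 fell short of the threshold by edgeR with separate groups, 69.9, 66.0 and 85.8 CPM against 38.2, 21.2 and 8.78 CPM (log2 fold change -1.70 ± 0.48, edgeR adjusted p = 0.0600), and passed by limma-voom and DESeq2 (adjusted p = 0.0485 and 0.00269). Epha7, named after its value was seen, showed the same arrangement with a log2 fold change of -1.15 ± 0.34 (edgeR adjusted p = 0.0643). In these 2 receptors control 3 was the highest control, opposite to Epha4 and Epha3.

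Epha1 rested on 1 library, with 117 reads in control 1 and 9 to 24 in every other library. Its log2 fold change of -2.37 ± 0.93 did not pass (edgeR adjusted p = 0.119), and over fits leaving out 1 library the value ran from -2.90 to -0.78. Ephb2, named after its value was seen, had 87.3, 79.4 and 29.8 CPM in controls against 41.5, 36.2 and 25.0 CPM in HI. Control 3 lay inside the HI range (edgeR adjusted p = 0.15). Counts of Ephb2 were not whole in some libraries, so some reads may have been divided with another gene. The other direction was seen in Ephb4, the receptor of venous endothelium, likewise named after its value was seen. It had 8.94, 10.4 and 8.76 CPM in controls and 13.0, 22.4 and 34.7 CPM in HI, separate groups 1.32 ± 0.35 apart on the log2 scale (edgeR adjusted p = 0.0523, not passed). Another 6 Eph receptors, Epha2, Epha5, Epha6, Epha10, Ephb1 and Ephb3, ran from -0.44 to 1.23, with edgeR adjusted p of at least 0.0997.

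Of 8 tested ephrins 1 fell and 0 rose by edgeR (12.5% passed, against 13.9% of all genes). At an unadjusted p below 0.05 by edgeR there were 3 (37.5%, against 36.5%), so both shares were near those of all genes. Efna3, a lipid-anchored ligand of EphA receptors that astrocytes present to Epha4 at synapses, had 65.7, 66.9 and 60.7 CPM in controls and 37.6, 40.2 and 23.6 CPM in HI. The controls were close together, control 3 included, and the fall was to 0.525 (log2 fold change -0.93 ± 0.21 SE, edgeR adjusted p = 0.0367). Efna2 had a similar pattern at a lower level, 17.3, 19.9 and 16.7 CPM against 12.4, 12.5 and 9.33 CPM (edgeR adjusted p = 0.0535). Efna5 differed from both. Its levels of 67.6, 84.2 and 21.1 CPM in controls and 62.3, 17.9 and 22.5 CPM in HI overlapped, with control 3 next to HI 2 and HI 3 and HI 1 next to control 1 (edgeR adjusted p = 0.425). Efnb1, a transmembrane ligand named after its value was seen, had HI above control in every library at a log2 fold change of 0.36 ± 0.15 (edgeR adjusted p = 0.134), and Efna1, Efna4, Efnb2 and Efnb3 lay between -0.58 and 0.63.

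Robo2, the receptor that keeps axons from crossing back over the midline and limits the branching of forebrain neurons, fell with little dependence on control 3. It had 399, 487 and 389 CPM in the controls and 119.6, 144 and 61.9 CPM in HI, and the groups were far apart. The level in HI was 0.255 of control (log2 fold change -1.97 ± 0.31 SE, edgeR adjusted p = 0.0231). Robo2 was the single gene of 6 tested in this family that passed (16.7%, against 13.9% of all genes). Slit2, a Robo ligand, had 41.0, 53.2 and 39.5 CPM against 63.4, 55.2 and 74.7 CPM, separate groups by a narrow margin (log2 fold change 0.53 ± 0.17, edgeR adjusted p = 0.0747). Robo3, at 7 to 27 reads per library, did not pass (edgeR adjusted p = 0.196). Robo1, Slit1 and Slit3 lay between -0.35 and 0.48.

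Of 10 tested netrins and netrin receptors 1 rose and 0 fell by edgeR (10% passed, against 13.9% of all genes). At an unadjusted p below 0.05 by edgeR there were 4 (40%, against 36.5%). DESeq2 passed 3, close to its share of 28.1% over all genes. Unc5b, a netrin receptor of endothelial tip cells and neurons that mediates repulsion, had 16, 13.9 and 20.8 CPM in controls and 25.1, 39.0 and 34.7 CPM in HI. All HI libraries were above all controls, a 1.95-fold rise (log2 fold change 0.96 ± 0.22 SE, adjusted p = 0.0404 by edgeR and 0.0521 by limma-voom). The 6 tested endothelial markers summed to 139 to 189 CPM in controls and 154, 255 and 307 CPM in HI 1, 2 and 3, with 1 of 6 higher by the same test. The first 2, Cldn5 and Pecam1, had log2 fold changes of 0.33 and 1.28 that did not pass (edgeR adjusted p = 0.341 and 0.0653). Markers of mural cells and fibroblasts summed to 255 to 458 CPM in controls and 470.2 to 1155 CPM in HI, with 2 of 10 higher. Their part in the rises of Unc5b and Sema3g was not tested.

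Ntng2, a netrin-G bound to the membrane by a lipid anchor that organizes excitatory synapses, had 120.5, 151 and 29.6 CPM in controls and 13.6, 28.3 and 31.0 CPM in HI. Control 3 lay within the HI range, and the log2 fold change of -2.05 ± 0.61 did not pass (edgeR adjusted p = 0.0667). Unc5c had 77.9, 72.5 and 42.8 CPM against 41.9, 30.4 and 23.4 CPM, with control 3 less than 1 CPM above HI 1 (edgeR adjusted p = 0.0630). Ntn1 itself, named after its value was seen, had 9.31, 10 and 42.8 CPM in controls and 30.7, 14.1 and 7.09 CPM in HI. Its sign depended on control 3, with a log2 fold change of -0.26 in all libraries and 0.81 without that control. The remaining Dcc, Ntn3, Ntn4, Ntng1, Unc5a and Unc5d lay between -0.43 and 0.41 with edgeR adjusted p of at least 0.117.

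In the group of Nogo-A and its receptors 3 of 5 tested genes fell (60%, against 7.04% of all genes) and 0 rose (against 6.83%) by edgeR. At an unadjusted p below 0.05 by edgeR there were 4 (80%, against 36.5%). DESeq2 passed 4, beside 28.1% of all genes. Rtn4 had 1232, 1179 and 1019 CPM in controls and 787, 736 and 549 CPM in HI, without overlap, a fall to 0.604 of the control level (log2 fold change -0.73 ± 0.18 SE, edgeR adjusted p = 0.0436). The table does not resolve the isoforms Nogo-A, B and C, of which B is widespread outside neurons. Rtn4rl1, a Nogo receptor homologue that also binds chondroitin sulphate proteoglycans, had 92.2, 85.1 and 68.1 CPM against 27.6, 31.9 and 32.4 CPM. Its HI libraries varied by 2.64 CPM (SD) around a mean of 30.7, and its log2 fold change was -1.42 ± 0.15. Its edgeR adjusted p of 0.0196 was the smallest of the members and equal to the smallest over all genes. Rtn4rl2, a homologue that binds the myelin-associated glycoprotein, had 52.0, 51.2 and 24.9 CPM against 5.22, 15.6 and 12.7 CPM and fell to 0.262 (adjusted p = 0.0417 by edgeR and 0.0523 by limma-voom).

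Rtn4r, the Nogo-66 receptor itself, had separate groups that did not pass, 42.0, 42.6 and 22.5 CPM against 14.0, 21.0 and 16.4 CPM (log2 fold change -1.06 ± 0.29, edgeR adjusted p = 0.0539). Without control 3 it passed at -1.34 (edgeR adjusted p = 0.0249). Rtn4ip1, the mitochondrial member, had 14.7, 14.4 and 14.8 CPM in controls and 14.8, 12.5 and 14.1 CPM in HI, which overlap (edgeR adjusted p = 0.685). Of the partners outside the rule, the co-receptor Lingo1 fell from 348, 351 and 269 CPM to 182, 199.6 and 124 CPM (edgeR adjusted p = 0.0366). The co-receptor Ngfr, with 5.38, 4.86 and 26.4 CPM against 31.0, 17.7 and 5.39 CPM, had overlapping groups (edgeR adjusted p = 0.659). The other myelin ligands Mag and Omg stood at log2 fold changes of -1.14 ± 0.35 and -0.38 ± 0.21, neither past the threshold (edgeR adjusted p = 0.0690 and 0.239). Beside Mag, 8 oligodendrocyte markers summed to 494 to 772 CPM in controls and 315 to 383 CPM in HI. Lingo1, Ngfr, Mag and Omg were named after their values were seen.

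**Figure D4:**
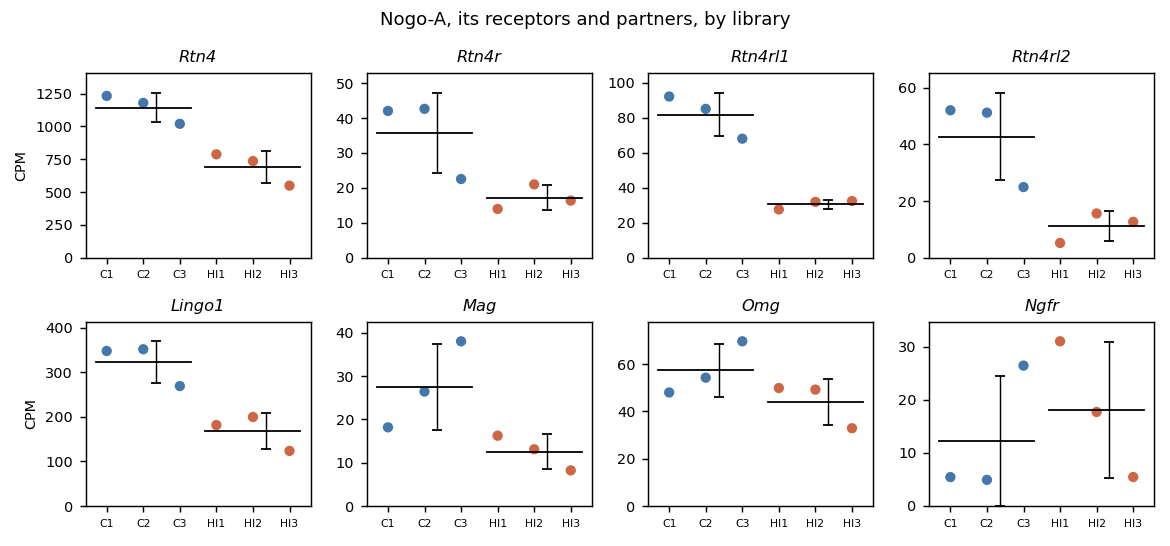
CPM (vertical axes, linear) of Rtn4, its receptors Rtn4r, Rtn4rl1 and Rtn4rl2, the co-receptors Lingo1 and Ngfr and the myelin ligands Mag and Omg in each control (blue) and HI library (red), with group means and 1 SD over 3 libraries. The HI points of Rtn4rl1 lie between 27.6 and 32.4 CPM under controls of 68.1 CPM or more, while those of Ngfr overlap the controls.

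Beyond the rule, 89 co-receptors, adaptors, exchange factors and cytoskeletal effectors of guidance signalling were examined. Of 88 tested 23 fell and 2 rose, beside 7.04% and 6.83% of all genes, and the list's median log2 fold change was -0.44. Kalrn, an exchange factor acting in dendritic spines, went from 145, 154 and 149 CPM to 68.8, 72.8 and 64.0 CPM, with little spread in either group (log2 fold change -1.13 ± 0.09 SE, edgeR adjusted p = 0.0196). Mical2, an actin-oxidizing enzyme of the family that acts downstream of plexin A, fell to 0.315. Chn1, a Rac inhibitor required downstream of Epha4, fell to 0.537, and Gpc1, a heparan sulphate proteoglycan that binds Slit, to 0.626 of the control level (edgeR adjusted p of these 3 between 0.0215 and 0.0243). Those that rose were Fes, a tyrosine kinase of myeloid cells and plexin signalling (3.94-fold), and Dock1, a Rac activator in phagocytosis and netrin signalling (2.25-fold), with edgeR adjusted p of 0.0304 and 0.0384. Counts of Dock1 were not whole in HI, so some of its reads may have been divided with another gene.

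The collapsin response mediator proteins carry semaphorin 3A signals to microtubules. By edgeR 4 of the 5 fell, beside 7.04% of all genes. Crmp1, Dpysl3, Dpysl4 and Dpysl5 had log2 fold changes of -1.36, -1.31, -0.68 and -1.18 (edgeR adjusted p = 0.0333, 0.0448, 0.0448 and 0.0492). By limma-voom Crmp1 passed (adjusted p = 0.0416), while Dpysl3, Dpysl4 and Dpysl5 had 0.0538, 0.0529 and 0.0565. Dpysl2 at -0.53 ± 0.21 did not pass by edgeR (adjusted p = 0.119). The mean of controls 1 and 2 over control 3 was 1.81 for Crmp1, 1.80 for Dpysl3, 1.71 for Dpysl5, 1.21 for Dpysl2 and 0.99 for Dpysl4. These genes were named after their values were seen. Counts of Dpysl5 were not whole, so some of its reads may have been divided with another gene. Rhoa, the GTPase on which many repellents converge, averaged 347 ± 7.75 CPM over the controls against 406 ± 33.5 CPM over HI (SD, n = 3 per group, edgeR adjusted p = 0.169), also named after its value was seen. Of the effectors 0 passed by edgeR without control 1, control 2 or HI 2, fits in which 0, 1 and 0 of all genes passed. Without HI 3 there were 6 lower and 0 higher, beside 399 and 245 of all genes, and without HI 1 there were 32 and 4, beside 1592 and 2097.

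Control 3 was at least 1.5-fold under the mean of controls 1 and 2 in 18 of the 74 members (24.3%, against 10.5% of all tested genes) and at least 1.5-fold over it in 11 (14.9%, against 9.60%). In 6 of the 13 members that fell it was lower by that much, with ratios of the first 2 controls to control 3 of 4.68 for Ephb6, 3.29 for Sema7a, 2.07 for Rtn4rl2, 2.01 for Epha4, 1.67 for Epha3 and 1.58 for Sema6c. The dorsal cortex list had its lowest control value in that library, and 10 excitatory neuron genes summed to 2209, 2190 and 1405 CPM in controls and 564, 659 and 458 CPM in HI, with 6 of 10 lower by the test. The first 2 genes of that list, Slc17a7 and Camk2a, had 426 to 511 and 134 to 189 CPM across the controls, against 2.54 to 63.3 and 44.7 to 51.9 CPM across the HI libraries.

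The fits with a marker level as a further term show how far the members move with it. With the mean level of the dorsal cortex list in the fit, 0 of 14959 genes (0%) passed by edgeR. The log2 fold change of Sema7a was then -1.49, of Ephb6 -0.66, of Rtn4rl2 -0.76 and of Ntng2 0.15, whereas Epha4 stood at -2.50, Robo2 at -1.93, Sema3e at -1.31 and Plxna2 at -1.53. Plxnc1 was at 0.10 with that term (edgeR adjusted p = 0.847). With the choroid plexus list as the term 36 genes (0.241%) passed by edgeR, among them 1 member, Plxnc1 (log2 fold change 1.29, adjusted p = 0.0457). In that fit Plxnb2 stood at 0.55, Unc5b at 0.91 and Sema3g at 0.74. The dorsal cortex level itself differed between the groups, so its share in these falls and that of the injury cannot be told apart.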

How the data were processed

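RNA of rat brain tissue was sequenced in 3 control and 3 HI libraries. Per the labels' protocols, RNA was extracted with TRIzol and libraries made with a SMARTER kit. Assembly Rnor 6.0 and the tools StringTie 2.2.1, HISAT2 2.1.0 and SAMtools 1.10 are named in the submitters' processing notes. How reads were counted, by strand or not, and how shared reads were divided is not given in the sources used here. Estimated counts per gene, without scaling, are what the authors deposited. In 2410 genes some values were not whole, among the members in Ephb2, Plxnb1 and Robo4.

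Counts were rounded, filtered (filterByExpr, minimum count 10), scaled by TMM and tested in edgeR 4.0.16 (R 4.3.3, limma 3.58.1) by quasi-likelihood on group, two-sided, with Benjamini-Hochberg adjustment over 14959 genes. The SE was derived from the F statistic, and scripts were tested on simulated data. No 2 libraries were duplicates (chi-square per degree of freedom at least 13.4). DESeq2 1.42.0, limma-voom and the other alternatives are given in the closing section. Floors cover counting error only.

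Members and lists were chosen with earlier results of these data known. Values by library are given for members that passed and for up to 2 per family that did not, those with the largest change and a mean of at least 1 CPM. Effectors are the 4 with the smallest p in each direction, and genes beyond these rules are marked. Gene numbers were matched to RefSeq promoter windows (GRCr8, first listed window per gene).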

Additional observations from a re-analysis of the deposited data

How the results depend on the processing

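The median of the members stayed below 0 in all 16 alternatives, from -0.49 without HI 1 to -0.15 with total counts. Counts of calls varied more. Members higher in HI numbered 5 with upper-quartile factors, 6 by total counts, 7 with DESeq2, 1 with the choroid plexus term, 0 with the dorsal cortex term and 0 to 6 when a library was left out. Members lower in HI numbered 26 with DESeq2, 0 with the choroid plexus term, 0 with the dorsal cortex term and 0 to 24 when a library was left out. Effectors higher in HI numbered 6 with total counts (beside 14.4% of all genes), 5 with DESeq2 (13.9%) and 0 with limma-voom (3.69%). They numbered 0 with each marker term and 0 to 4 when a library was left out. Effectors lower in HI numbered 15 with upper-quartile factors (beside 5.37% of all genes) and 15 by total counts (4.88%). DESeq2 gave 41 lower (14.2%) and limma-voom 14 (5.47%). With the choroid plexus term 2 were lower (beside 22 of all genes) and with the dorsal cortex term 0 (beside 0). When a library was left out 0 to 32 were lower. The cause was not tested.

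With the replicate number as a block 1 member was higher and 14 were lower, beside 771 and 952 of all genes, and 10 of the 16 calls were shared. The member higher was Plxnb1 (edgeR adjusted p = 0.0367), while Plxnb2, Unc5b and Sema3g had 0.0506, 0.0604 and 0.0771. The deviations of same-numbered libraries from their group means correlated at 0.24, 0.07 and -0.14 across genes for numbers 1, 2 and 3, so the numbers were not taken to pair the samples, and not every library correlated best with its own number.

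Over the 54 genes named, 621 of 862 alternative values kept direction and call, 187 lost the call, 42 gained it and 12 changed sign. The sign changes with the dorsal cortex term were to 0.11 for Efna5, 0.055 for Robo3, 0.15 for Ntng2, -0.39 for Nrp2, -1.42 for Ngfr and 0.12 for Ephb2. Rtn4ip1 turned to 0.013 under upper-quartile scaling and 0.11 when scaled by total counts, and Ntn1 to 0.97 with the choroid plexus term. When a library was left out, Ngfr ran from -0.090 (without HI 1) to 1.79 and Ntn1 from -0.97 to 0.81 (without control 3), with 0.12 without HI 3. None of these genes passed the test with all libraries. With 3 libraries per group and depth as given, Robo4, Ntn5 and Unc5cl could not be tested.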
